A study of Homo sapiens with 12 samples.

Results

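The 9 genes NFS1, ISCU, LYRM4, GLRX5, ISCA1, ISCA2, IBA57, NFU1 and BOLA3 encode the core of the machinery that builds iron-sulfur clusters inside mitochondria. They were chosen by name, 9 of the 20332 genes in the deposited expression table, and each was found once and was tested in every comparison. The study measured polyA-selected RNA by 150-bp paired-end sequencing in Ishikawa and KLE cells, 2 established lines from human endometrial cancer. Each line was grown in DMEM/F12 medium with serum and either left as a control or given 200 µM CuCl2 for 24 h, with 3 biological replicates described as independent in each of the 4 groups, 12 libraries in all. The control cells, named untreated here, are also described as vehicle controls. The labels name no genetic change in any group.

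Library totals ran from 14050275 to 25057003 counts, and the members had 147 to 1898 counts in a library. The epithelial markers EPCAM, CDH1, KRT8, KRT18, KRT19 and PAX8 were high in both lines (group means of 155 to 2000 TPM, the share of transcripts after division by length), while the oestrogen receptor ESR1 and the progesterone receptor PGR were near 0 in both (group means of 0.0167 to 0.386 TPM). Summed over the 8 epithelial markers, the level was 3580 to 4020 TPM in untreated and 2470 to 2600 TPM in copper-treated Ishikawa cells. In KLE cells it was 5100 to 5380 TPM without and 5870 to 5920 TPM with copper. There the mean TPM rose for KRT8 (1610 to 2000), KRT18 (1400 to 1700) and KRT19 (575 to 659). It fell for EPCAM (1040 to 993), CDH1 (196 to 179) and PAX8 (438 to 353). The 6 leukocyte markers summed to 7.17 to 8.91 TPM in untreated and 8.84 to 12.3 TPM in copper-treated Ishikawa cells, and to 19.3 to 23.3 and 28.5 to 36.4 TPM in KLE cells, and the 4 endothelial markers to 1.35 to 4.04 TPM in all. The part of these differences in the results was not tested. The second untreated Ishikawa library stood apart: it was the deepest, and its 7 fibroblast markers summed to 7.52 TPM against 20.9 to 63.9 TPM in the other libraries.

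Iron-sulfur clusters are small inorganic cofactors that carry electrons or sit in the active sites of enzymes. In mitochondria the cysteine desulfurase NFS1, held stable by LYRM4 (ISD11), takes sulfur from cysteine, and a first [2Fe-2S] cluster is built on the scaffold ISCU with electrons from a ferredoxin. The chaperones HSPA9 and HSCB release the cluster to the glutaredoxin GLRX5. ISCA1, ISCA2 and IBA57 then turn it into [4Fe-4S] clusters, which NFU1 and BOLA3 help to deliver to targets such as the lipoyl synthase LIAS. Lipoylated enzymes and iron-sulfur proteins are known targets of excess copper in cells, and copper can displace iron from iron-sulfur clusters.

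Gene bounds are those of GENCODE 29 on GRCh38, which may not be the annotation behind the deposited values. NFS1 (ENSG00000244005) spans chr20:35668055-35699359 on the minus strand, ISCU (ENSG00000136003) chr12:108562582-108569384 on the plus strand, and LYRM4 (ENSG00000214113) chr6:5102593-5260939 on the minus strand. GLRX5 (ENSG00000182512) is at chr14:95533503-95544724 and ISCA2 (ENSG00000165898) at chr14:74493720-74497106, both on the plus strand. ISCA1 (ENSG00000135070) is at chr9:86264546-86283102 on the minus strand and IBA57 (ENSG00000181873) at chr1:228165815-228182257 on the plus strand. NFU1 (ENSG00000169599) at chr2:69395750-69437628 and BOLA3 (ENSG00000163170) at chr2:74135398-74147994 are both on the minus strand. NFS1 overlaps ROMO1, ISCA2 overlaps NPC2 and GLRX5 overlaps SNHG10 and SCARNA13, in each case on the opposite strand. On the same strand NFS1 overlaps AL109827.1 and LYRM4 overlaps MIR3691. No source used here says that reads were counted by strand, so reads from within the opposite-strand overlaps cannot be told apart. ISCU, ISCA1, ISCA2, NFU1 and BOLA3 also have pseudogenes, which the table does not list and whose reads could have been shared with them.

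The promoters of the 5 members whose RNA changed in Ishikawa cells are printed here, since these genes moved in both directions under the same treatment. Each is the 300 bases from 250 before to 50 after the gene's start in RefSeq (GRCh38.p14), 5′ to 3′ on the gene's own strand, with matches to the searched motifs in capitals. All 9 members had a window, 11 in all. The windows are ISCU chr12:108562346-108562645 (plus strand), ISCA1 chr9:86282489-86282788 (minus), NFS1 chr20:35699303-35699602 (minus), GLRX5 chr14:95534800-95535099 (plus) and ISCA2 chr14:74493515-74493814 (plus).
ISCU: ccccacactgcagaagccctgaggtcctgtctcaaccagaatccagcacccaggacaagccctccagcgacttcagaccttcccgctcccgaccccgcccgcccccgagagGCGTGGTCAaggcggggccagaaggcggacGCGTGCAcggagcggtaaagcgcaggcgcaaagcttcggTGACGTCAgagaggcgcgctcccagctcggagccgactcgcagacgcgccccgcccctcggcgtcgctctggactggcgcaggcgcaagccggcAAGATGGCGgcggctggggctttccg
ISCA1: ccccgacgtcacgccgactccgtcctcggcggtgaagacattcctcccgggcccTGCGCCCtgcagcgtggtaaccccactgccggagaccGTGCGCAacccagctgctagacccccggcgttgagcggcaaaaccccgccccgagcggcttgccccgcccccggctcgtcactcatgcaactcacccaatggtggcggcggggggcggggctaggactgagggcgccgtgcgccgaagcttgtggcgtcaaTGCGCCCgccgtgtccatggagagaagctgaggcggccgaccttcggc
NFS1: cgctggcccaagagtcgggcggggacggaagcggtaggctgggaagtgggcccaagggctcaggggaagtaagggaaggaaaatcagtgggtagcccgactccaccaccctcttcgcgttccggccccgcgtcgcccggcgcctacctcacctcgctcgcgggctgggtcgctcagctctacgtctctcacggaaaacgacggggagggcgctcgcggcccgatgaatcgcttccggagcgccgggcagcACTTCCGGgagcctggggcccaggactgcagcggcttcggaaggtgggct
GLRX5: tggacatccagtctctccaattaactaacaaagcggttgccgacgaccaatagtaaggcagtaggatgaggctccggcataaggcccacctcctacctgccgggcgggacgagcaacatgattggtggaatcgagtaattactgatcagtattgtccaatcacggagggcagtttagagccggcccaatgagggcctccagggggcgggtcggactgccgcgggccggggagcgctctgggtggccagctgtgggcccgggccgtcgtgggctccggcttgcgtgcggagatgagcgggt
ISCA2: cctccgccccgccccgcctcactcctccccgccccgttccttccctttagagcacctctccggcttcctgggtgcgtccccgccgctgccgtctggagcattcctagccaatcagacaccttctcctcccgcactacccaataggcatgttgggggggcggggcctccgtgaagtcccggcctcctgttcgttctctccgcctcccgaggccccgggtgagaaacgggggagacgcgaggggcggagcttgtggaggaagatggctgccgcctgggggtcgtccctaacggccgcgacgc

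The search covered 7 motifs on both strands: the antioxidant response element (TGACNNNGC), the heat shock element (GAANNTTC), 2 forms of the metal response element (TGCACNC and TGCGCNC), the cyclic AMP response element (TGACGTCA), and sites of YY1 (AAGATGGCG) and ETS factors (CCGGAAGT). The ISCU window held an antioxidant response element 139 bases before the start, which 13.3% of all 35116 RefSeq promoter windows also held. It also held the A form of the metal response element 109 bases before the start (12.1% of all windows), a cyclic AMP response element 70 bases before it (1.85%) and a YY1 site within the first 50 transcribed bases (1.75%), which IBA57 and NFU1 held too. The ISCA1 window held 3 matches to the G form of the metal response element, of which 20.0% of all windows held at least 1. IBA57 and LYRM4, whose RNA did not pass the test in Ishikawa cells, held that form too. The NFS1 window held an ETS site at its start (4.14% of all windows). GLRX5 and ISCA2 held no match to any of these letters. The GLRX5 and ISCA1 windows lie wholly inside the GENCODE bounds given above, so RefSeq and GENCODE place these starts differently. Sequence before the GENCODE starts of GLRX5 and ISCA1 was not searched. The heat shock element (6.77%) was found in no member window. None of the matches shown overlaps another. A match of this kind is a description of the letters only.

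In untreated cells the members differed widely in level. On the TPM scale, which is per transcript length, GLRX5 was the highest in untreated Ishikawa cells at 138.7 ± 5.46 TPM (SD, n = 3), followed by ISCU at 103.7 ± 7.35 TPM. ISCA1 (66.9 ± 1.82 TPM), NFU1 (62.5 ± 4.50 TPM) and BOLA3 (61.4 ± 7.03 TPM) came next and did not differ from one another beyond their spread. NFS1 (38.5 ± 3.13 TPM) and its stabiliser LYRM4 (34.6 ± 2.57 TPM) were likewise close to each other. ISCA2 followed at 23.7 ± 3.13 TPM, and IBA57 was lowest at 3.88 ± 0.353 TPM. The order was nearly the same in untreated KLE cells, where GLRX5 was at 131.9 ± 0.274, ISCU at 81.1 ± 1.48 and IBA57 at 3.69 ± 0.163 TPM. There LYRM4 (34.6 ± 0.632 TPM) lay above NFS1 (27.6 ± 1.64 TPM). NFU1 (66.5 ± 0.492 TPM), ISCA1 (66.0 ± 0.681 TPM) and BOLA3 (64.8 ± 3.77 TPM) again differed by no more than their spread, and so did NFS1 and ISCA2 (25.3 ± 3.56 TPM).

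**Figure D1:**
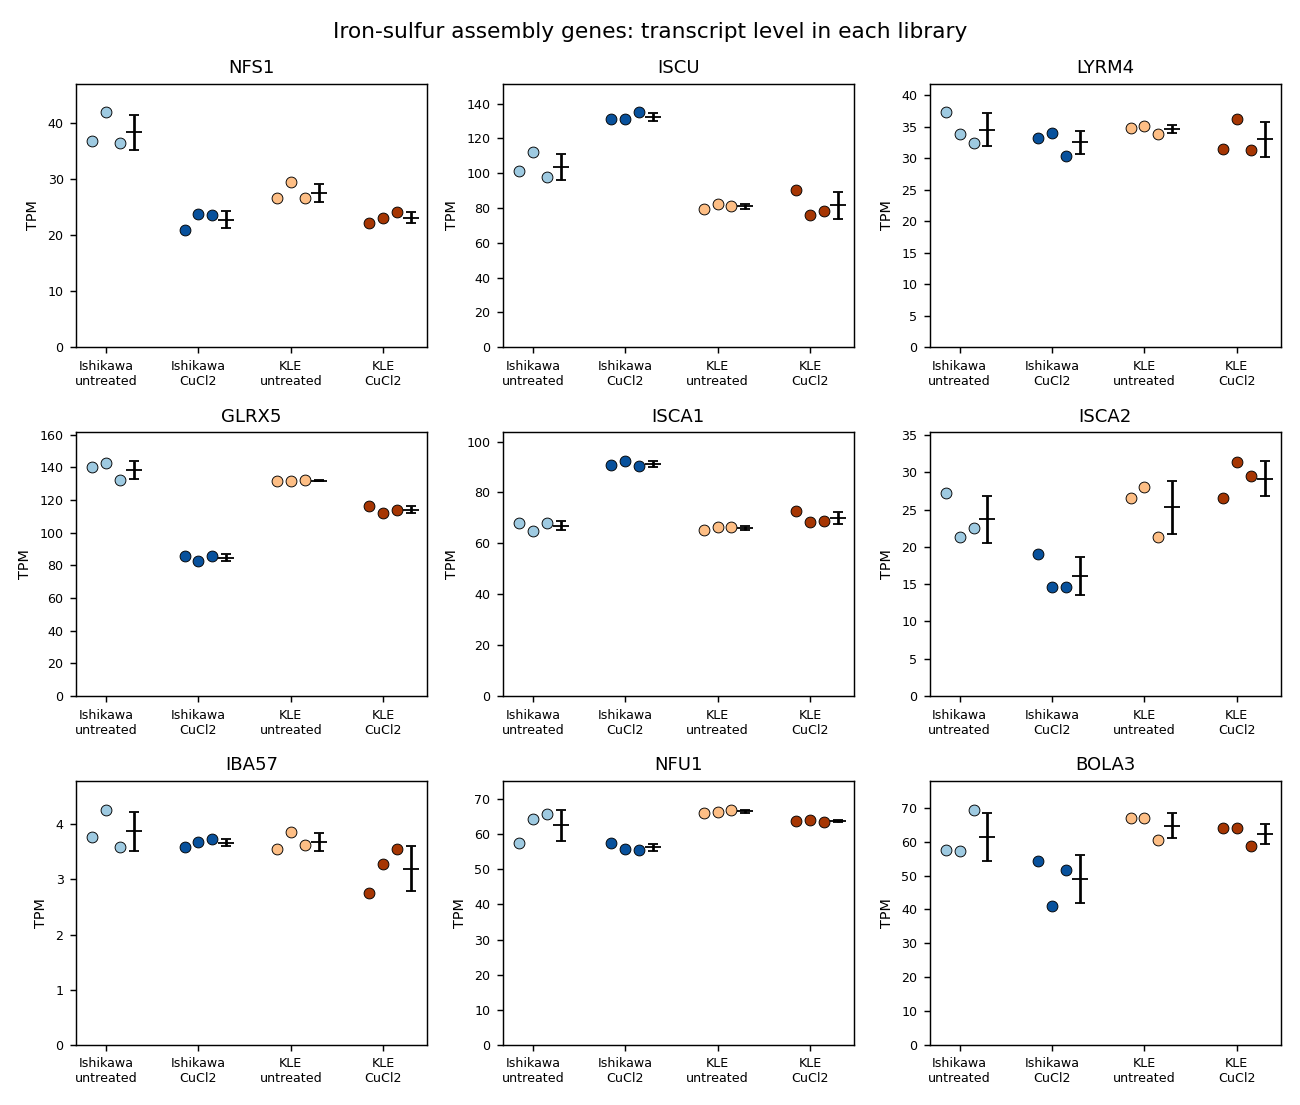
Level of each of the 9 members in TPM (y axis, from 0) in the 4 groups (x axis). Points are single libraries, bars the mean and SD of 3 libraries. ISCU and ISCA1 stand higher, and NFS1, GLRX5 and ISCA2 lower, in copper-treated than in untreated Ishikawa cells, while the KLE groups lie closer together.

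The first comparison asked how 24 h of copper changed these genes in Ishikawa cells. ISCA1 and ISCU rose by 54.1% and 45.3%, and GLRX5 fell by 30.4%, NFS1 fell by 29.9% and ISCA2 fell by 22.3%, so the core genes did not move as a block. LYRM4, IBA57, NFU1 and BOLA3 did not pass the test. In bulk RNA, fewer cells with a transcript and less of it per cell cannot be told apart. In all, 5 of 9 members were called (55.6%) at an adjusted p under 0.05 (edgeR's quasi-likelihood test, two-sided, Benjamini-Hochberg over all genes tested), against 69.1% of the 13359 genes tested. Of the members 2 were higher and 3 lower, against 33.8% and 35.3% of all genes. The members' share is therefore not above the background of this line. Only ISCA1 was both called and changed at least 1.5-fold, which 34.8% of all genes were. The members' median absolute log2 change was 0.365, against 0.419 over all genes.

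The sulfur donor NFS1 was at 29.1, 31.2 and 30.3 CPM (the share of a library's counts, scaled with TMM factors over the 12 libraries) in the untreated Ishikawa replicates and at 19.5, 21.0 and 21.9 CPM with copper. Every copper-treated library lay below every untreated one, and the log2 change was -0.51 ± 0.0816 (SE; 95% confidence interval -0.688 to -0.339; edgeR adjusted p = 5.32e-05). Its partner LYRM4 was at 26.6, 23.2 and 23.1 CPM without copper and 25.9, 26.2 and 23.6 CPM with it. These groups overlapped, and the log2 change of 0.09 had an interval of -0.102 to 0.277 (adjusted p = 0.394). The NFS1 to LYRM4 ratio of TPM within a library was 0.985, 1.24 and 1.13 without and 0.632, 0.703 and 0.776 with copper, so the copper-treated libraries all lay below the untreated ones.

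The scaffold ISCU moved the opposite way from NFS1. It was at 48.6, 51.9 and 47.4 CPM in untreated and 70.3, 68.9 and 71.7 CPM in copper-treated Ishikawa cells, with no overlap. The log2 change was 0.54 ± 0.0617 (interval 0.407 to 0.671; edgeR adjusted p = 1.95e-06). On the log2(TPM + 1) scale the rise was smaller by over 1.5 times, 0.35 (limma adjusted p = 0.000878). The median change of all genes on that scale was -0.1572, against -0.0133 in the edgeR fit. GLRX5, which receives the cluster made on ISCU, was at 73.9, 72.4 and 69.9 CPM without copper and 50.3, 47.5 and 49.7 CPM with it. Its groups did not overlap either, and its log2 change was -0.52 ± 0.0607 (adjusted p = 2.29e-06).

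The 2 A-type assembly proteins of the [4Fe-4S] step went in opposite directions. ISCA1 was at 60.4, 58.3 and 63.7 CPM in untreated and 91.4, 91.9 and 91.7 CPM in copper-treated Ishikawa cells, a log2 change of 0.62 ± 0.0568 (interval 0.503 to 0.745; edgeR adjusted p = 1.65e-07). The copper-treated libraries differed from each other by under 1 CPM and lay well above all untreated ones. ISCA2 was at 16.8, 14.9 and 13.9 CPM without copper and 12.4, 11.3 and 10.9 CPM with it, again with no overlap. Its log2 change was -0.36 ± 0.110 (interval -0.599 to -0.13; adjusted p = 0.00837), and the adjusted p reached 0.0451 without the first untreated replicate, where the change was -0.30. On the log2(TPM + 0.1) scale the ISCA2 change was -0.56, over 1.5 times larger, and the median change of all genes was -0.1743. NPC2, which overlaps ISCA2 on the other strand, rose in the same cells (log2 0.36, adjusted p = 0.000319). ROMO1, which overlaps NFS1 on the other strand, did not pass the test there (log2 0.11, edgeR adjusted p = 0.692).

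IBA57, which works with both, was at 13.4 to 15.3 CPM without and 14.9 to 15.3 CPM with copper (log2 0.10 ± 0.0974, interval -0.108 to 0.308, adjusted p = 0.374). The delivery factor NFU1 was at 24.5 to 28.3 and 25.1 to 27.0 CPM (log2 0.01 ± 0.083, interval -0.166 to 0.189, adjusted p = 0.909). BOLA3 was at 14.6, 13.96 and 17.9 CPM without and 15.6, 11.6 and 14.7 CPM with copper (log2 -0.12 ± 0.13, interval -0.397 to 0.157, adjusted p = 0.423). The groups of all 3 overlapped. Of these only BOLA3 passed the test under another setting, on the TPM scale, where its log2 change was -0.32 (limma adjusted p = 0.0353). Groups that did not overlap were found for 5 of 9 members, the 5 called ones, and for 72.7% of all genes. The 5 changes stood without the second untreated library, at log2 -0.50 for NFS1, 0.57 for ISCU, -0.53 for GLRX5, 0.58 for ISCA1 and -0.39 for ISCA2.

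In KLE cells the same treatment left most members close to their untreated level. GLRX5 fell by 11.2% and ISCA1 rose by 9.68%, and the other 7 did not pass the test. That is 2 of 9 called (22.2%), against 50.8% of the 13031 genes tested, with 1 higher against 25.6% and 1 lower against 25.2% of all genes. None of the 9 was called with a change of at least 1.5-fold, which 13.0% of all genes were. The median absolute log2 change was 0.116 over the members and 0.195 over all genes. The share of counts from the 13 genes of the mitochondrial genome was 5.91% to 6.82% in untreated and 4.05% to 4.72% in copper-treated KLE cells, and its part in these results was not tested.

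GLRX5 was at 73.0, 71.4 and 70.5 CPM in untreated and 64.3, 62.6 and 63.9 CPM in copper-treated KLE cells, without overlap. Its log2 change was -0.17 ± 0.0486 (interval -0.269 to -0.0729; edgeR adjusted p = 0.00319). ISCA1 was at 62.7, 61.8 and 61.5 CPM without and 69.0, 66.5 and 68.4 CPM with copper, also without overlap, a log2 change of 0.13 ± 0.0492 (adjusted p = 0.0221). This call was lost in 9 of 17 alternative settings, among them leaving out untreated replicate 2 (log2 0.13, adjusted p = 0.0594) or 3 (0.13, 0.0675) or copper-treated replicate 1 (0.12, 0.0687) or 3 (0.13, 0.0633), and on the TPM scale (0.08, limma adjusted p = 0.201). Groups did not overlap for these 2 of 9 members and for 56.6% of all genes.

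NFS1 was at 24.3, 23.9 and 20.9 CPM in untreated and 20.3, 19.8 and 22.0 CPM in copper-treated KLE cells, and the groups overlapped through the third replicate of each. Its log2 change of -0.15 ± 0.0805 (interval -0.316 to 0.00932) had an edgeR adjusted p of 0.111, and it passed the test without untreated replicate 3 (-0.22, adjusted p = 0.0389), with upper-quartile scaling (-0.20, 0.0385) and on the TPM scale (-0.24, limma adjusted p = 0.0223). ISCU was at 40.3, 40.7 and 39.5 CPM without and 45.6, 38.4 and 40.1 CPM with copper, with 1 copper-treated library above the rest (log2 0.05 ± 0.0636, adjusted p = 0.582). ISCA2 was at 17.1, 17.0 and 15.6 CPM without and 15.9, 19.1 and 18.9 CPM with it (log2 0.12 ± 0.0905, adjusted p = 0.295). The other 4, LYRM4, IBA57, NFU1 and BOLA3, had log2 changes from -0.17 to -0.01 and adjusted p from 0.168 to 0.91.

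**Figure D2:**
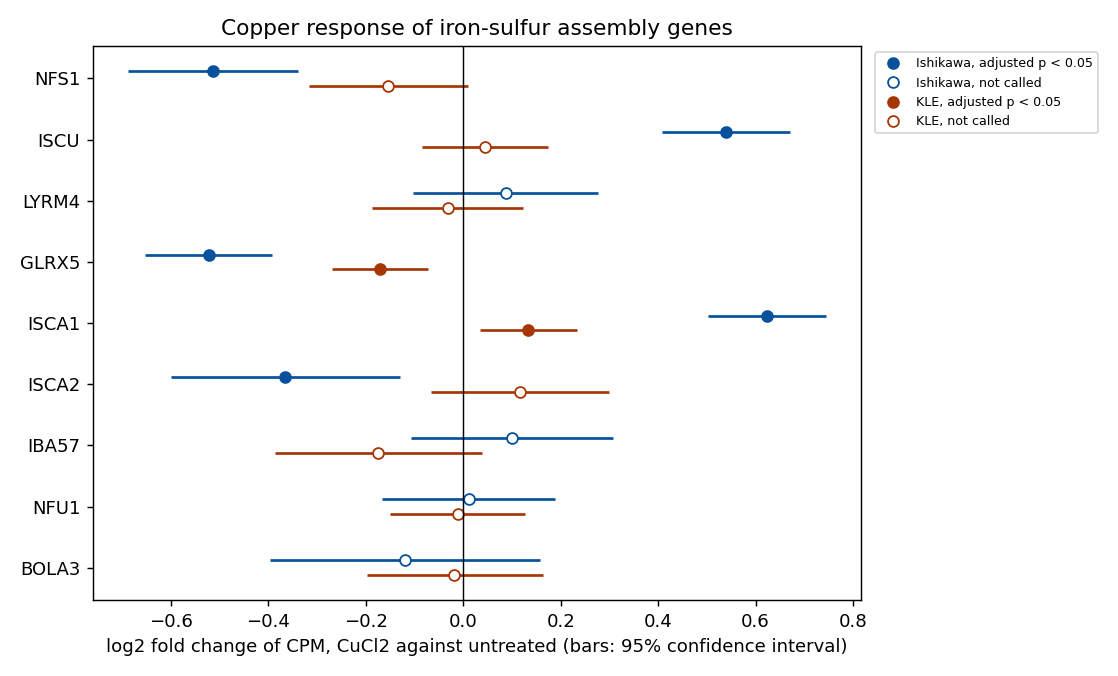
Log2 fold change of CPM with copper (x axis, 0 marked) for each member (y axis) in Ishikawa and KLE cells. Points are edgeR estimates, filled where the adjusted p was under 0.05, and bars are 95% confidence intervals. The Ishikawa estimates run from -0.52 (GLRX5) to 0.62 (ISCA1), and those of KLE cells from -0.17 to 0.13.

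The difference between the responses of the lines was tested itself, in a fit of all 12 libraries. The same 5 members that changed in Ishikawa cells differed, and each had the smaller response in KLE cells or, for ISCA2, a value of opposite sign that did not pass the test there. The difference (KLE minus Ishikawa, log2) was 0.42 ± 0.114 for NFS1 (edgeR adjusted p = 0.00468), -0.44 ± 0.0898 for ISCU (0.000385), 0.41 ± 0.0717 for GLRX5 (7.52e-05), -0.43 ± 0.0703 for ISCA1 (2.77e-05) and 0.54 ± 0.142 for ISCA2 (0.00364). So 5 of 9 members were called (3 higher, 2 lower), against 45.4% of 13663 genes (24.6% higher, 20.8% lower). All 5 kept their call and sign in all 22 alternative settings. None was called at 1.5-fold or more, which 18.1% of all genes were. For LYRM4 (-0.06, interval -0.31 to 0.182), IBA57 (-0.22, -0.514 to 0.0812), NFU1 (0.03, -0.177 to 0.245) and BOLA3 (0.16, -0.173 to 0.488) no difference was shown, and the intervals leave room for one.

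Before copper, NFS1 and ISCU were the 2 members that differed between the lines. NFS1 was 23.0 ± 1.87 CPM (SD, n = 3) in KLE and 30.2 ± 1.06 CPM in Ishikawa cells, a log2 difference of -0.40 ± 0.0778 (SE; edgeR adjusted p = 0.000175). ISCU was 40.2 ± 0.648 and 49.3 ± 2.33 CPM, a difference of -0.30 ± 0.0639 (adjusted p = 0.000414). Both were lower in KLE cells in every library pair, and these were also the only 2 of 9 members whose untreated groups did not overlap, against 55.1% of all genes. The 2 called members (both lower, 22.2%) stand against 50.0% of 13663 genes called, with 25.6% called lower and 24.5% higher. GLRX5 (71.7 ± 1.28 and 72.1 ± 2.06 CPM) and ISCA1 (62.0 ± 0.644 and 60.8 ± 2.72 CPM) were close to equal, with intervals of -0.113 to 0.0911 and -0.0763 to 0.132 on the log2 scale. Adjusted p of the 7 not called ran from 0.142 to 0.908.

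With copper, 5 of 9 members differed between the lines (3 higher and 2 lower in KLE cells), against 65.7% of all genes (33.3% higher, 32.3% lower). ISCU was 41.4 ± 3.79 CPM (SD, n = 3) in KLE and 70.3 ± 1.40 CPM in Ishikawa cells, a log2 difference of -0.74 ± 0.063 (edgeR adjusted p = 4.83e-10). ISCA1 was also lower in KLE cells, by 0.41 ± 0.0491 on the log2 scale (adjusted p = 1.52e-07). GLRX5 (log2 0.40 ± 0.052, adjusted p = 5.42e-07) and ISCA2 (0.66 ± 0.103, adjusted p = 5.57e-06) were higher. NFS1, which differed before copper, was 20.7 ± 1.16 CPM in KLE and 20.8 ± 1.24 CPM in Ishikawa cells after it (log2 0.02, interval -0.152 to 0.192, adjusted p = 0.847). BOLA3 was called higher in KLE cells (0.30 ± 0.115, adjusted p = 0.0265). Its call was lost in 7 of 16 alternatives, including leaving out Ishikawa copper replicate 2 (0.13, 0.337) or 3 (0.29, 0.0596), or KLE copper replicate 1 (0.29, 0.0656), 2 (0.28, 0.074) or 3 (0.30, 0.0543). IBA57 (-0.23, adjusted p = 0.052) and NFU1 (0.16, 0.0551) lay just outside the threshold, and passed it in 9 and 4 of 16 alternatives. IBA57 did so without Ishikawa copper replicate 1 (-0.28, 0.043) or 2 (-0.28, 0.0424) or KLE copper replicate 3 (-0.36, 0.00858). Groups did not overlap for 7 of 9 members, against 70.7% of all genes. These comparisons share libraries: the untreated Ishikawa samples enter both the line difference and the Ishikawa response.

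Ratios of 2 members within 1 library do not depend on how libraries are scaled. They show a shift of 1 member relative to the other, but not which of the 2 moved. The ISCA1 to ISCA2 ratio of TPM was 2.49, 3.04 and 3.01 in untreated Ishikawa cells and 4.76, 6.32 and 6.18 with copper, a mean of 2.85 ± 0.311 (SD, n = 3) against 5.75 ± 0.865. Every copper-treated library was above every untreated one. In KLE cells the same ratio was 2.65 ± 0.419 without and 2.41 ± 0.285 with copper. The ISCU to NFS1 ratio, scaffold to sulfur donor, was 2.75, 2.66 and 2.68 in untreated and 6.26, 5.49 and 5.73 in copper-treated Ishikawa cells, a mean 116% higher. In KLE cells it was 2.99, 2.79 and 3.05 without and 4.06, 3.28 and 3.26 with copper, a mean 20.0% higher with no overlap. The ISCA1 to GLRX5 ratio went from 0.483 ± 0.0301 to 1.08 ± 0.0380 in Ishikawa and from 0.501 ± 0.00424 to 0.611 ± 0.0106 in KLE cells. These ratios were chosen after the members' values were seen, and carry no test.

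**Figure D3:**
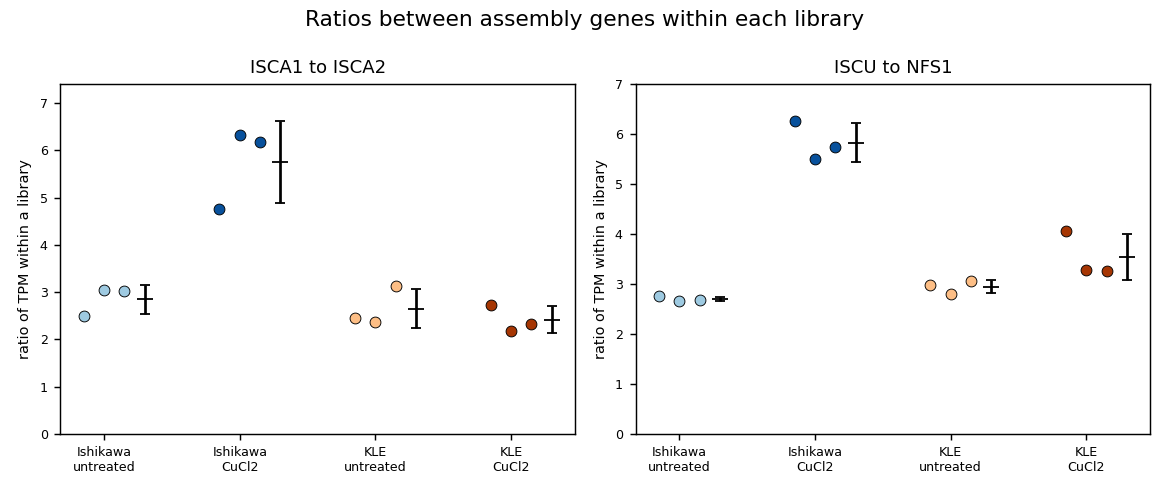
Ratio of TPM within each library (y axis, from 0) for ISCA1 to ISCA2 (left) and ISCU to NFS1 (right) in the 4 groups (x axis). Points are libraries, bars the mean and SD of 3. The copper-treated Ishikawa libraries, at 4.76 to 6.32 (left) and 5.49 to 6.26 (right), lie above all others in both panels.

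Partners of the core are described as a list of 10 genes. In Ishikawa cells 4 were higher, 3 lower and 3 not called (70.0% called, against 69.1% of all genes), with a median log2 change of 0.165 against -0.0133 over all genes. HSPA9, the mitochondrial Hsp70 chaperone that works on ISCU, rose most: it was 678.4 ± 26.6 CPM (SD, n = 3) without and 1514 ± 28.4 CPM with copper, a log2 change of 1.19 ± 0.0409 (edgeR adjusted p = 4.19e-12). Its co-chaperone HSCB rose by 0.82 ± 0.136 (adjusted p = 8.13e-05). The nucleotide exchange factor GRPEL1 (0.33) and the acyl carrier protein NDUFAB1 (0.30), which binds LYRM4, also rose, although both calls were lost on the TPM scale, and that of NDUFAB1 also when scaled by library totals alone.

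The partners that fell in Ishikawa cells were FDXR, BOLA1 and SLC25A37. Ferredoxin reductase, FDXR, which passes electrons to the ferredoxins, had the largest change, -1.20 ± 0.214 on the log2 scale (edgeR adjusted p = 0.000151), from 6.76 ± 1.41 to 2.87 ± 0.787 CPM (SD, n = 3). BOLA1, which binds GLRX5, fell by 0.78 ± 0.231 (adjusted p = 0.00746), a call lost without untreated replicate 2 (-0.52, adjusted p = 0.0553). The iron importer mitoferrin-1, SLC25A37, fell by 0.35 ± 0.111 (adjusted p = 0.0112), a call lost without copper-treated replicate 1 (-0.31, 0.0507) or 3 (-0.28, 0.0596). The ferredoxin FDX2 (0.16), the complex I assembly factor NUBPL (-0.15) and mitoferrin-2, SLC25A28 (0.17), did not pass.

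In KLE cells 5 of these partners were higher, 1 lower and 4 not called (60.0% called, against 50.8% of all genes), with a median log2 change of 0.161 against -0.00167 over all genes. HSPA9 rose by 0.28 ± 0.0285 (730.9 ± 10.3 to 885.9 ± 5.64 CPM, SD, n = 3; edgeR adjusted p = 7.07e-11), GRPEL1 by 0.29 and NDUFAB1 by 0.27. FDXR fell by 0.61 ± 0.161 (adjusted p = 0.00152). BOLA1 (0.01, adjusted p = 0.966) and SLC25A37 (0.00, 0.981) did not pass. FDX2 (0.31, adjusted p = 0.0233) and HSCB (0.37, 0.034) were called higher but lost their calls in 7 and 11 of 17 alternatives. For FDX2 these included leaving out untreated replicate 3 (0.20, 0.193) or copper-treated replicate 1 (0.28, 0.0723) or 2 (0.24, 0.128). For HSCB they included untreated replicate 1 (0.39, 0.0601) or 2 (0.19, 0.296) or copper-treated replicate 1 (0.40, 0.0501) or 2 (0.30, 0.141).

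Of the 10 partners, 4 differed between the lines in their copper response (40.0%, against 45.4% of all genes). The HSPA9 rise was smaller in KLE cells by 0.85 ± 0.0469 on the log2 scale (edgeR adjusted p = 3.22e-12) and kept that call in every alternative. The changes of BOLA1 (difference 0.85, adjusted p = 0.0253), FDXR (0.65, 0.0484) and SLC25A37 (0.41, 0.00876) were more negative in Ishikawa cells, but these calls were lost in 6, 14 and 2 of 22 alternatives. The SLC25A37 call was lost without Ishikawa copper replicate 1 (0.32, adjusted p = 0.0598) or 3 (0.30, 0.0651). The BOLA1 call was lost without Ishikawa untreated replicate 2 (0.59, 0.105), Ishikawa copper replicate 1 or 2, KLE untreated replicate 1 or KLE copper replicate 1. The FDXR call stood without Ishikawa untreated replicate 3 or Ishikawa copper replicate 2, and was lost without any other single library, down to 0.43 (adjusted p = 0.187) without Ishikawa copper replicate 3. SLC25A37 also differed before copper, at 35.4 ± 1.86 CPM (SD, n = 3) in KLE and 15.1 ± 0.304 CPM in Ishikawa cells (log2 1.23, adjusted p = 1.23e-11).

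The wider pathway, from 3 further lists, had genes called in both directions in Ishikawa cells, as had all genes (33.8% higher and 35.3% lower, 69.1% called). Of 11 genes of cytosolic iron-sulfur assembly, 3 were higher, 5 lower and 3 not called (72.7% called). The glutaredoxin GLRX3 rose by 1.10 ± 0.0511 and the scaffold NUBP1 by 0.64 ± 0.0869 on the log2 scale, while NUBP1's partner NUBP2 fell by 0.43 ± 0.124 and CIAO3 by 0.65 ± 0.141 (edgeR adjusted p from 1.15e-10 to 0.00658). Of 15 mitochondrial iron-sulfur proteins, 6 were higher, 2 lower and 7 not called (53.3% called). Ferrochelatase, FECH, the last enzyme of haem synthesis, rose by 0.72 and CISD1 by 0.41, while CISD3 fell by 0.57 and MOCS1, of molybdenum cofactor synthesis, by 0.55. LIAS (-0.12) and FDX1 (-0.05), the lipoyl synthase and the ferredoxin linked to protein lipoylation, did not pass. The LIAS groups still did not overlap (19.7 to 19.9 CPM without, 17.0 to 18.8 CPM with copper), as in 72.7% of all genes. On the TPM scale LIAS was 29.8 ± 1.37 without and 23.8 ± 0.642 with copper (SD, n = 3). FDX1 was 13.05 ± 0.447 and 11.1 ± 0.866 TPM. All genes together were also lower on this scale: their median change was -0.1572 on log2(TPM + 1), against -0.0133 with TMM factors. Of 19 genes listed as cytosolic and nuclear iron-sulfur proteins, 9 were higher, 6 lower and 4 not called (78.9% called). The list includes CDK5RAP1, which acts on mitochondrial tRNAs. The primase subunit PRIM2 rose by 0.95 and the tRNA-modifying CDKAL1 by 0.78. The DNA glycosylase NTHL1 fell by 0.92 and the DNA polymerase subunit POLD1 by 0.48. The POLD1 call was lost without copper-treated replicate 1 (-0.48, adjusted p = 0.0537). Without untreated replicate 2, the library that stood apart, the change was -0.29 for POLD1 and -0.27 for NUBP2, over 1.5 times smaller. The CISD1 rise was 0.22 on the TPM scale, also over 1.5 times smaller.

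In KLE cells 6 of the 11 cytosolic assembly genes were higher, none was lower and 5 were not called (54.5% called, against 50.8% of all genes, 25.6% higher and 25.2% lower), with GLRX3 (0.52 ± 0.0429) and CIAO2B (0.48 ± 0.0888) the largest rises on the log2 scale (edgeR adjusted p = 1.34e-13 and 1.77e-05). Of the 15 mitochondrial iron-sulfur proteins 2 were higher, CISD1 (0.30) and FECH (0.29), and 1 lower, CISD3 (-0.23), with 12 not called (20.0% called), LIAS (0.13) and FDX1 (0.16) among them. Of the 19 genes listed as cytosolic and nuclear iron-sulfur proteins 8 were higher, led by CDK5RAP1 (0.28) and DPH2 (0.26). Of the same list 1 was lower, ERCC2 (-0.32), and 10 were not called (47.4% called). CDK5RAP1 acts on mitochondrial tRNAs and stands in this list only by the grouping used here. The CISD3 call was lost without untreated replicate 3 (-0.19, adjusted p = 0.0898) or copper-treated replicate 1 (-0.19, 0.0715) or 3 (-0.21, 0.0575), and the DPH2 call on the TPM scale (0.19, limma adjusted p = 0.0773).

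**Figure D4:**
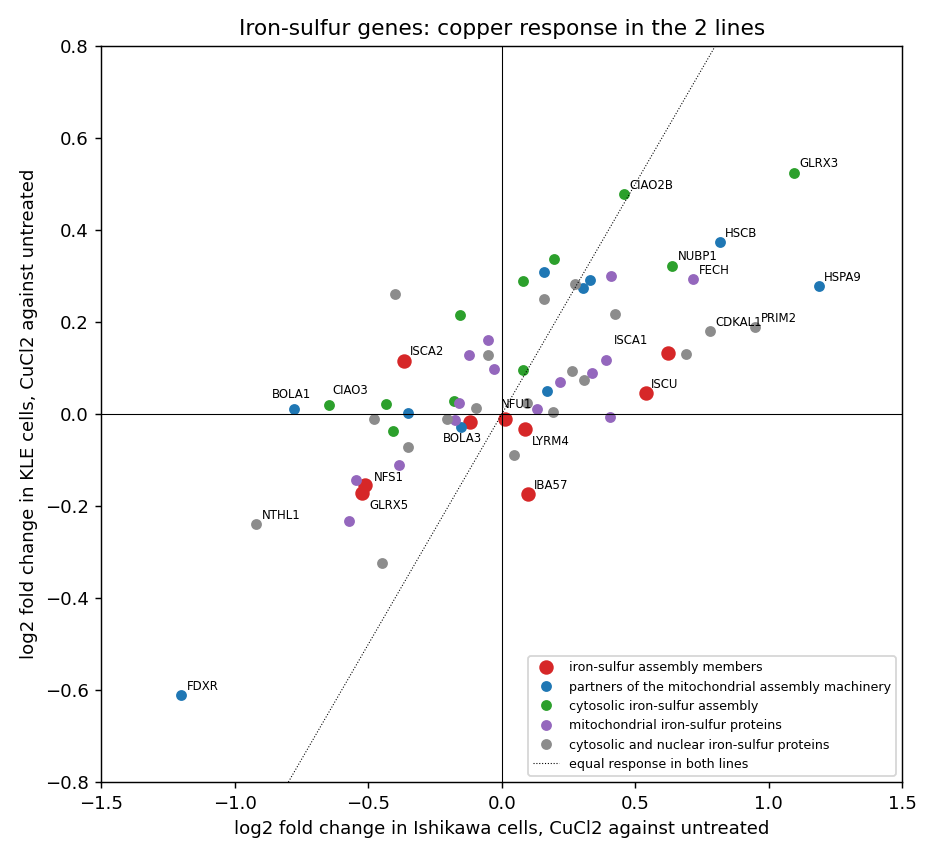
Log2 fold change with copper in Ishikawa (x axis) against KLE cells (y axis) for the members and the 4 pathway lists, coloured by list. Each point is 1 gene, and the dotted line marks equal responses. FDXR is lowest on both axes (-1.20 and -0.61), HSPA9 (1.19 and 0.28) is farthest right, and the members lie between -0.17 and 0.13 in KLE cells.

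Across the 4 group means the members differed in how far they ranged. LYRM4 had the smallest span of group means, 0.0586 on the log2 CPM scale, smaller than in all but 0.366% of the genes tested. That span is below the SE of the LYRM4 copper response in Ishikawa cells (0.0887), so its exact rank is uncertain. NFU1 spanned 0.15. ISCU spanned most, 0.807, and 58.2% of all genes spanned less than that. The 3 genes closest to ISCU in pattern were GCH1 (0.0596), PTDSS1 (0.0632) and PDCL (0.0633), by the mean absolute difference of centred log2 CPM over the 12 libraries. GCH1 was 38.2 ± 1.69 and 53.4 ± 1.59 CPM (SD, n = 3) in untreated and copper-treated Ishikawa cells and 32.6 ± 1.91 and 33.7 ± 2.85 CPM in KLE cells.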

How the data were processed

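RNA of the 12 libraries was aligned and quantified by the submitters. The submitters' processing notes name HISAT2 2.1.0, Bowtie2 2.2.8, RSEM, fastp 0.18.0, R 4.2.2, DESeq2 and the build GRCh38.p14. What each tool did, and which annotation was used, is not given in the sources used here. Per the file headers the deposited table holds whole counts, expected counts and TPM for 20332 genes, 617 of them without a symbol. The counts the authors deposited are their expected counts rounded (differences up to 0.5, and 12.8% to 14.1% of expected counts per library were not whole). The deposited normalized values named for FPKM are TPM per the file headers, and TPM therefore took the place of FPKM in the alternatives.

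From the counts, edgeR 4.0.16 in R 4.3.3 computed TMM factors, filterByExpr and robust quasi-likelihood tests, two-sided, with Benjamini-Hochberg adjustment over all genes tested. A gene was called at an adjusted p under 0.05. Each line's copper response used its 6 libraries, and the 3 other comparisons all 12. An SE is the absolute log2 change over the square root of the F statistic. Alternatives used DESeq2 1.42.0 and limma 3.58.1, other scalings, filters and pseudocounts, and left out each library. No 2 replicates of the same group agreed within sampling noise. The chi-square of their counts per degree of freedom was 2.04 at the lowest. It was highest for the pairs with untreated Ishikawa replicate 2 (8.43 and 12.8). Precision is limited by 3 replicates per group and by counts of 147 to 1898 per member and library.

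The members and gene lists were chosen with earlier results of these data known. Some genes of the pathway are not reported here. Named besides the members are the 10 partners reported, per list and line the 2 called genes that rose most and the 2 that fell most, and the 3 genes nearest to the member of widest range. LIAS, FDX1, NPC2 and ROMO1, outside that rule, were chosen after their values were seen.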

Additional observations from a re-analysis of the deposited data

Results flagged for a closer look

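The copper response of 5 members differed between the lines in a test of the difference itself (edgeR, fit of all 12 libraries). As KLE minus Ishikawa on the log2 scale, the difference was 0.4172 for NFS1, -0.4376 for ISCU, 0.4075 for GLRX5, -0.4347 for ISCA1 and 0.5368 for ISCA2. Among the partners it was 0.6486 for FDXR, -0.8529 for HSPA9, 0.8535 for BOLA1 and 0.4078 for SLC25A37. Among cytosolic assembly genes it was 0.5169 for NUBP2, 0.7285 for CIAO3 and -0.5148 for GLRX3. The NUBP2 call was lost in 12 of 22 alternatives, among them without Ishikawa untreated replicate 2 (0.34, adjusted p = 0.0751). Among mitochondrial iron-sulfur proteins it was -0.3679 for FECH, 0.3968 for CISD3 and 0.4623 for MOCS1. The MOCS1 call was lost in 15 of 22 alternatives (values down to 0.33, without Ishikawa untreated replicate 2). The CISD3 call was lost in 3, without Ishikawa copper replicate 2 (0.29, adjusted p = 0.0659) or 3, or KLE untreated replicate 1. Among cytosolic and nuclear ones it was 0.5263 for POLD1, -0.7043 for PRIM2, 0.7397 for NTHL1, -0.5431 for CDKAL1 and 0.7211 for DPH2. The POLD1 call was lost in 5 of 22, with no count filter and without Ishikawa copper replicate 1 or 3, KLE untreated replicate 1 or KLE copper replicate 1, and POLD1 was 0.33 without Ishikawa untreated replicate 2. Groups of 3 libraries are too small for a test of single outlying libraries.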

How the results depend on the processing

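Over 792 alternatives of the 45 member results, 757 kept their side of the threshold, 16 calls were lost, 19 were gained and none was reversed. In 53 of the 757 the sign changed with neither value called. Over 2288 alternatives of the 130 results of partners and other named genes, 130 calls were lost and 30 gained. In 2 more the call was lost and the sign changed. Both concern HSPA9 in untreated KLE against Ishikawa cells, called at 0.10. It was -0.00603 on log2(TPM + 1) and -0.006038 on log2(TPM + 0.1), neither called (limma adjusted p = 0.935 and 0.933). This HSPA9 call was also lost with library totals, and the cause was not tested.

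With a minimum of 1.5-fold added to the threshold, 1 member was higher and 0 lower in Ishikawa cells (4646 of all genes called), 0 and 0 in KLE cells (1698), 0 and 0 for the difference between responses (2467), 0 lower in untreated KLE cells (2483), and 1 higher and 1 lower in copper-treated KLE cells (3926). In KLE cells the members higher with copper, 1 in the report, were 0 with upper-quartile factors, library totals, DESeq2, log2(TPM + 1) and log2(TPM + 0.1), and 0 to 1 when leaving out single libraries. Those lower, 1 in the report, were 2 with upper-quartile factors, log2(TPM + 1) and log2(TPM + 0.1), and 1 to 2 when leaving out single libraries.

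The median log2 change of all genes in Ishikawa cells, -0.0133 with TMM factors, was -0.125 with upper-quartile factors, -0.1675 with library totals, and -0.1572 and -0.1743 on the 2 TPM scales. Calls in Ishikawa cells, 4514 higher and 4714 lower, were 3370 and 6068 with library totals and 2996 and 5619 on log2(TPM + 1). Calls for the difference, 3358 and 2848, were 2942 and 3196 with RLE factors, 4151 and 2349 with library totals and 3494 and 1906 on log2(TPM + 1). In KLE cells, 3330 and 3287 became 2685 and 3943 with upper-quartile factors. The 5 Ishikawa member calls stood in all 17 alternatives run.

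Replicate numbers did not pair the samples in KLE cells, where deviations of same-numbered libraries correlated at -0.0614, -0.0483 and -0.0812. In Ishikawa cells these correlations were weak but all positive (0.038, 0.155 and 0.0721). Ishikawa libraries of different number correlated at -0.143 to 0.0706, so a weak pairing there is not excluded. With the replicate block, 9355 genes were called in Ishikawa cells against 9228, 6193 against 6617 in KLE cells, 6132 against 6206 for the difference, 6775 against 6838 untreated and 8905 against 8971 with copper. No member call changed under the block (2 higher and 3 lower in Ishikawa cells). In Ishikawa cells every library except copper-treated replicate 1 correlated best with its own number. That replicate did so with untreated replicate 3 (0.0706). In KLE cells no library correlated best with its own number.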
